A study of Mus musculus with 2 samples.

Results

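The genes described here were the matrix proteases and their inhibitors, namely the matrix metalloproteinases (Mmp), the tissue inhibitors of metalloproteinases (Timp), the ADAMTS proteases and the ADAMTS-like proteins. They were chosen by name, as every protein-coding gene of the expression table whose symbol begins with Mmp, Timp, Adamts or Adamtsl followed by its number. The rule took 50 of 54532 genes, which were 22 Mmp, 4 Timp, 19 Adamts and 5 Adamtsl genes. Mmp1a also carries such a name, but it is annotated as a polymorphic pseudogene and was left out. The study compared macrophages of dyslipidemic mice with Phlegm-Dampness Retention (PDR) syndrome and with Spleen and Kidney Yang Deficiency (SKYD) syndrome, which are disease patterns of Traditional Chinese Medicine modelled in animals. All mice were male ApoE-/- animals on the C57BL/6J background, labelled as 6 weeks old, and ApoE-/- mice lack apolipoprotein E and clear cholesterol-rich lipoproteins poorly. PDR mice had a high-fat diet for 4 weeks, whereas SKYD mice received the antithyroid drug propylthiouracil by gavage (10 mg/kg per day) for 4 weeks and then a high-fat diet for 2 weeks. Aortas were digested with trypsin, cells were sorted on CD11b and the macrophage antigen that Adgre1 encodes, and the cells of 5 mice were pooled into 1 RNA-seq library for each syndrome. Drug, length of feeding, age at sampling and syndrome therefore cannot be told apart, and no difference below has a replicate check.

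Matrix metalloproteinases are zinc enzymes that are made as inactive proenzymes and cut collagens, elastin, proteoglycans and other matrix proteins once their propeptide is removed. TIMPs bind the active enzymes and block them. ADAMTS proteases are secreted relatives that trim procollagen, cleave proteoglycans such as versican, or act at fibrillin microfibrils, and ADAMTS-like proteins have a similar layout without the protease domain. In the artery wall, macrophages and neutrophils are known sources of elastase, gelatinase B and neutrophil collagenase, while fibroblasts and smooth muscle cells make gelatinase A, stromelysin, most TIMPs and most ADAMTS proteins. Each gene was therefore given a usual source from textbook knowledge, which was leukocyte for 4 genes, stromal for 27, both for 5, other tissues for 9 and unsure for 5.

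The table gave FPKM, which are fragments scaled to gene length and library size. Whole reads were recovered from it, 23086889 on genes for PDR and 25427863 for SKYD. Among the 50 genes, 38 had at least 1 read in either library, 12 had none, and 23 reached 20 reads in both libraries together. Together the 50 genes held 8903 reads, or 0.0386% of reads, in the PDR library and 23876, or 0.0939%, in the SKYD library. Their summed FPKM was 122 and 287, and was 2.35-fold higher in SKYD. Mmp8, Mmp19 and Timp2 together held 86.2% of these reads in PDR and 90.8% in SKYD. The family was thus a small share of either library, and its sum described these 3 genes above all. In bulk RNA of sorted cells, fewer cells of a type and less RNA per cell cannot be told apart.

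The libraries were compared in a pair of ways. By FPKM, the difference was log2(FPKM + 1) in PDR minus that in SKYD where mean FPKM reached 1, and more than 2-fold was counted. Of 8 matrix protease genes tested in this way, 3 were more than 2-fold higher in SKYD (Timp2, Mmp19 and Timp1) and 0 were more than 2-fold higher in PDR. Among all 10399 genes tested, 6.91% were more than 2-fold higher in SKYD and 7.38% in PDR, and among protein-coding genes the shares were 5.38% and 6.16%. The median difference of the 8 genes was -0.78, beside -0.0035 for all genes tested. By reads, the ratio of FPKM was taken for genes with at least 20 reads in both libraries together, with a library at 0 set to a floor of 3 reads. For such a library, "at least" gives the ratio to this floor, and a lower counting bound beside it allows for the counting error of the other library. By this rule 14 of 23 genes passed 2-fold toward SKYD, 2 passed it toward PDR and 7 passed it in neither direction. The shares among all 15014 genes tested were 15.4% for SKYD and 13.3% for PDR, and among protein-coding genes they were 14.1% and 12.1%. The median log2 ratio was -1.85 for the 23 genes and -0.03 for all genes tested. A minimum on summed reads admits genes with reads in a single library, and 8 of the 14 calls toward SKYD and both calls toward PDR had fewer than 20 reads in the other library. With at least 20 reads in each library, a choice made after the data were seen, 6 of 12 genes passed 2-fold toward SKYD and 0 toward PDR, beside 9.05% and 9.48% of 12182 genes, and the median log2 ratio of the 12 was -1.15. The folds below are ratios of FPKM, with 95% exact (Clopper-Pearson) intervals of how the reads split between the libraries, and these intervals cover counting error only.

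**Figure D1:**
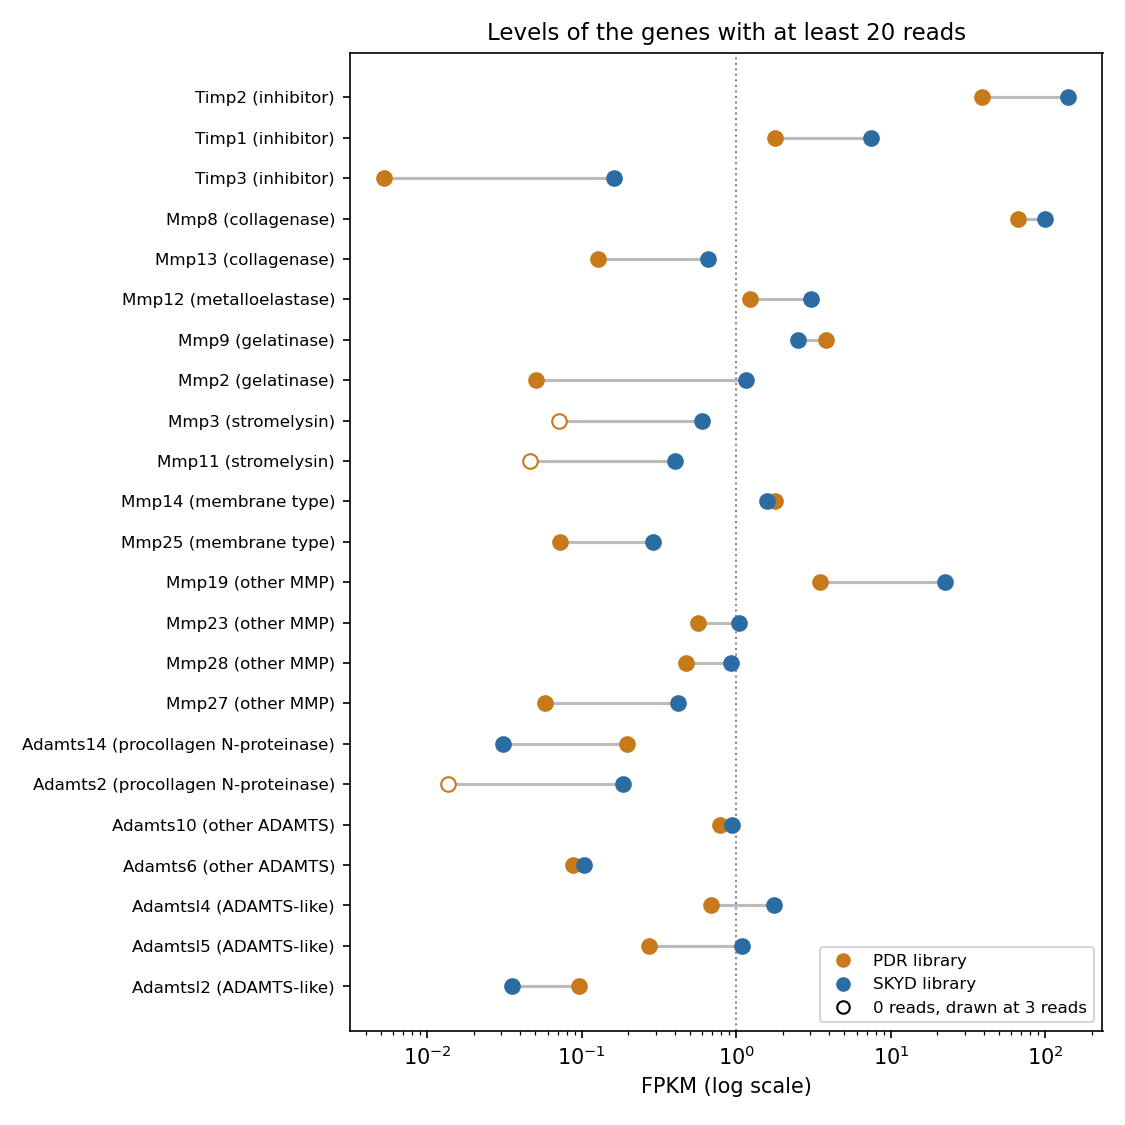
FPKM on a log scale of the 23 genes with at least 20 reads in both libraries together, by class, with 1 point for the PDR library and 1 for the SKYD library. Open points are libraries with 0 reads, drawn at the level of 3 reads, and the dotted line is at 1 FPKM; Timp2 and Mmp8 have the highest FPKM in both libraries, followed by Mmp19 at 22.4 in SKYD.

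The labelled cell type was checked first. Adgre1 had 6639 reads in PDR and 7551 in SKYD, and the CD11b gene Itgam had 1043 and 1803. All 12 macrophage markers had reads, and 10 of them were higher in SKYD, 4 of these by more than 2-fold. Their reads summed to 778584, or 3.37% of the PDR library, and to 1596283, or 6.28% of the SKYD library. Lyz2, which encodes lysozyme, was the most abundant, with 686737 and 1359594 reads. After Lyz2 the highest mean FPKM belonged to C1qb (34803 and 88101 reads) and C1qc (17758 and 57162 reads), which encode complement C1q chains. Csf1r (6620 and 5486 reads) and Fcgr1 (3155 and 2284 reads) were higher in PDR, 1.28-fold (95% CI 1.24 to 1.33) and 1.47-fold (95% CI 1.39 to 1.55), and Adgre1 was 1.07-fold higher in SKYD (95% CI 1.03 to 1.1). Macrophage markers were thus present in both libraries and differed in direction and size, and their part in the results below was not tested.

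Among the inhibitors, Timp2 held most of the signal and was higher in SKYD. Timp2 (ENSMUSG00000017466, chr11:118301069-118355740, minus strand, GRCm38) encodes a soluble inhibitor that also helps MT1-MMP activate proMMP2. It had 3574 reads and 39.1 FPKM in the PDR library against 13709 reads and 141 FPKM in the SKYD library. The level was 3.60-fold higher in SKYD (95% CI 3.47 to 3.74), a log2(FPKM + 1) difference of -1.82 (95% CI -1.88 to -1.77). By FPKM, Timp2 stood at place 1452 of 22046 protein-coding genes in PDR and at place 511 in SKYD. It made up 95.4% of the summed Timp FPKM in PDR and 94.9% in SKYD.

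Timp1 and Timp3 were also higher in SKYD, from far fewer reads. Timp1 (ENSMUSG00000001131, chrX:20870166-20874735, plus strand), an inhibitor induced by cytokines, had 37 reads and 1.77 FPKM in PDR and 165 reads and 7.43 FPKM in SKYD. It was 4.19-fold higher in SKYD (95% CI 2.92 to 6.16), a log2(FPKM + 1) difference of -1.60 (95% CI -1.96 to -1.23). Timp1 lies inside Syn1 on the opposite strand without shared exons, and Syn1 had 68 reads in PDR and 21 in SKYD. Timp3, the inhibitor bound to the matrix that also blocks ADAM17, had 1 read in PDR and 33 in SKYD, a ratio of 31.0 with a wide counting interval (95% CI 5.19 to 1262). Of its exon bases, 21.3% overlap exons of Syn3 on the opposite strand, which had 14 and 0 reads. Timp4, the inhibitor of heart and fat, was the exception, with 14 reads in PDR and 0 in SKYD, below the minimum of 20. Of the 4 inhibitor genes, 3 were therefore more than 2-fold higher in SKYD, and summed Timp FPKM was 40.9 in PDR and 148 in SKYD.

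Summed Mmp FPKM differed less between the libraries, with 79.0 in PDR and 134 in SKYD. The ratio of summed Timp to summed Mmp FPKM was accordingly 0.518 in PDR and 1.11 in SKYD. This ratio rested on Mmp8, which made up 84.7% of the summed Mmp FPKM in PDR and 73.8% in SKYD. Without Mmp8 the ratio was 3.38 in PDR and 4.23 in SKYD, and neither form of the ratio was planned before the data were seen. The ratio was higher in SKYD both ways, but without Mmp8 the libraries lay closer together, and the PDR value was above 1 rather than below it.

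Many of the secreted Mmp genes lie side by side on chromosome 9, where 9 of the 50 genes fill chr9:7272514-7699585 of GRCm38. In order they are Mmp13, Mmp12, Mmp1b, Mmp3, Mmp10, Mmp8, Mmp27, Mmp20 and Mmp7, with Mmp1b alone on the minus strand. In total they had 4050 reads in PDR and 6641 in SKYD, and 6 of the 9 had reads. Mmp8 made up 97.3% of the summed FPKM of the cluster in PDR and 95.4% in SKYD. The protein-coding neighbours Dcun1d5, before the cluster, and Tmem123, after it, had 3692 and 7619 reads in PDR and 4397 and 3573 in SKYD. Reads along the cluster were thus concentrated on a single gene, and its neighbours within the cluster differed by orders of magnitude.

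**Figure D2:**
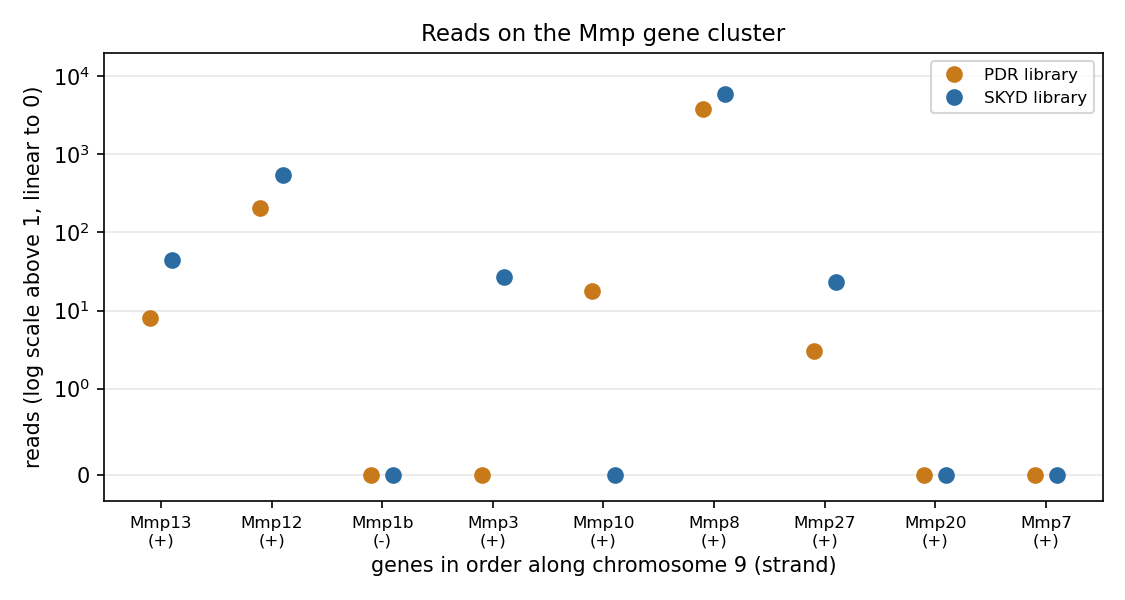
Reads on the 9 Mmp genes of the chromosome 9 cluster, in genomic order with the strand of each, in the PDR and SKYD libraries; the axis is logarithmic above 1 read and linear down to 0. Mmp8 and Mmp12 stand above the others in both libraries, Mmp3 has reads in SKYD only and Mmp10 in PDR only.

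The set of RefSeq promoters used here held entries for 35 of the 50 genes, and the cluster genes shared features there that the choice by name did not use. The AP-1 motif (TGAGTCA, or TGACTCA on the other strand) occurred within 250 bases before to 50 bases after the start of transcription of 6 of the 9 cluster genes (Mmp13, Mmp12, Mmp1b, Mmp3, Mmp10 and Mmp7). It occurred in 0 of the 26 other matrix protease genes with an entry, and in 5.20% of all 32851 promoters. The TATA motif (TATAAA, searched on the strand of the gene) was in 8.32% of all promoters. Both motifs occurred together in a promoter of each of those 6 cluster genes, or 6 of the 11 promoters of the cluster, and in 0.624% of all promoters. The promoters of the 4 of them that had reads are shown for comparison, as 70 bases beginning 10 bases before the AP-1 motif, 5′ to 3′, on the plus strand of GRCm38.p6, with the AP-1 and TATA motifs in capitals. They lie at chr9:7272469-7272538 for Mmp13, chr9:7347320-7347389 for the start of Mmp12 that lies further downstream, chr9:7445766-7445835 for Mmp3 and chr9:7502269-7502338 for Mmp10.
Mmp13: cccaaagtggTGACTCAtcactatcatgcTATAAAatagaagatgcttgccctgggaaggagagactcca
Mmp12: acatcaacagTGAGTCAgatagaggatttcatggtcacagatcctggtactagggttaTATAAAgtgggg
Mmp3: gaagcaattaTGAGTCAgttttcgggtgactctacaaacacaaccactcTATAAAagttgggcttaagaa
Mmp10: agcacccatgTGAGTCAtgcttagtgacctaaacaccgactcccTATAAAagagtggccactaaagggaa
The gap between the motifs was 12 bases in Mmp13, 41 in Mmp12, 32 in Mmp3 and 27 in Mmp10. Relative to the start of transcription, the TATA motif began at position -16 in Mmp13, 4 in Mmp12, -7 in Mmp3 and -29 in Mmp10. Its place thus differed between these genes, and in Mmp12 it lay after the start. Genes with both motifs did not share a level or a direction. Mmp13, Mmp12 and Mmp3 had more reads in SKYD, Mmp10 had reads in PDR only, and Mmp1b and Mmp7 had none. The promoter of Mmp8 had neither motif and held the PU.1 motif (ACTTCCTC, searched on both strands), which was in 3.20% of all promoters. PU.1 is a transcription factor of myeloid cells. The stretch at chr9:7558198-7558267, from position -231 to -162 relative to the start of transcription of Mmp8, is shown 5′ to 3′ on the plus strand with that motif in capitals.
Mmp8: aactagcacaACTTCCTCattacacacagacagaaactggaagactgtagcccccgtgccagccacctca
The same motif occurred in a promoter of Mmp12 and of Mmp7. A match of letters is a description of the sequence and shows no binding.

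Mmp8 (ENSMUSG00000005800, chr9:7558456-7568485, plus strand) encodes neutrophil collagenase, which is stored in granules and cuts fibrillar collagen. It had 3812 reads and 66.9 FPKM in PDR and 5994 reads and 98.9 FPKM in SKYD, and was 1.48-fold higher in SKYD (95% CI 1.42 to 1.54). Its log2(FPKM + 1) difference was -0.56 (95% CI -0.61 to -0.50), so it was past neither 2-fold rule. By FPKM it was the highest of the 50 genes in PDR and came after Timp2 in SKYD. Neutrophil markers lay the other way, with 11 of 12 at the higher FPKM in PDR and 5 of these past 2-fold. These markers summed to 79053 reads (0.342%) in PDR and 61917 (0.244%) in SKYD, and S100a8 had the most reads, 31150 and 25727. S100a9 (27087 and 21885 reads), S100a8 and Ngp (7512 and 3986 reads) had the highest mean FPKM among them, and Retnlg (2394 and 3192 reads) was the marker that was higher in SKYD, 1.25-fold (95% CI 1.19 to 1.32). Per 1000 reads of S100a8, Mmp8 had 122 reads in PDR and 233 in SKYD, and ratios to the other markers were not taken. Mmp8 was therefore higher in the library in which most neutrophil markers were lower, and the part of neutrophils in its level was not tested.

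Mmp13 (chr9:7272514-7283331), a collagenase of bone, cartilage and macrophages, had 8 reads in PDR and 44 in SKYD, and was 5.17-fold higher in SKYD (95% CI 2.41 to 12.7). Osteoblast and cartilage genes are the usual company of Mmp13 in bone, and 6 of 8 bone and cartilage markers (Sp7, Bglap, Ibsp, Col2a1, Acan and Sost) had 0 reads in both libraries. This list summed to 266 reads in PDR and 93 in SKYD, of which the most were those of Alpl (237 and 36). Runx2, with 29 and 57 reads, was the only other marker of that list with reads. The part of bone or cartilage cells in the level of Mmp13 was not tested.

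Mmp12 (ENSMUSG00000049723, chr9:7344381-7369499, plus strand), the macrophage elastase, had 209 reads and 1.23 FPKM in PDR and 553 reads and 3.06 FPKM in SKYD. It was 2.49-fold higher in SKYD (95% CI 2.12 to 2.93), with a log2(FPKM + 1) difference of -0.86 (95% CI -1.0 to -0.72). Mmp12 passed the rule by reads but not that by FPKM, since the added 1 shrinks differences near 1 FPKM. Its 3′ end overlaps Mmp1b, which had 0 reads. The median log2 ratio of the macrophage markers, -0.80, had the same sign and was smaller, and 8 of those 12 markers were within 2-fold.

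Stromelysins 1 and 2 cut proteoglycans, laminin and other Mmp proenzymes, and stromelysin 3 is grouped with them by name. Mmp3, stromelysin 1 of fibroblasts, had 0 reads in PDR, which allows up to 3, and 27 in SKYD, at least 8.46-fold higher in SKYD (lower counting bound 6.42). Mmp11, stromelysin 3, had 0 and 28 reads, at least 8.77-fold higher in SKYD (lower counting bound 6.67). Mmp11 shares 5.58% of its exon bases with Chchd10 on the opposite strand, which had 1194 reads in PDR and 353 in SKYD and thus ran the other way. Mmp10, stromelysin 2, had 18 reads in PDR and 0 in SKYD, which is under the minimum of 20 and is given because it was the reverse of Mmp3. Mmp3 and Mmp10 are close copies, and 5.64% of the 64-base windows of Mmp3 and 5.91% of those of Mmp10 occur in the other. Reads that fall in such windows could be counted for either gene, and at these depths the opposite values of the pair rest on few reads.

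Mmp27, a little studied gene of the same cluster, had 3 reads in PDR and 23 in SKYD, a ratio of 7.20 (95% CI 2.18 to 37.5). Mmp20, the enamel protease, and Mmp7, the matrilysin of epithelia, had 0 reads in both libraries.

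The gelatinases cut denatured collagen and basement membrane collagen, and they went opposite ways. Mmp9 (ENSMUSG00000017737, chr2:164940780-164955850, plus strand), gelatinase B of neutrophils and macrophages, had 317 reads and 3.81 FPKM in PDR and 221 reads and 2.50 FPKM in SKYD. It was 1.53-fold higher in PDR (95% CI 1.28 to 1.82), with a log2(FPKM + 1) difference of 0.46 (95% CI 0.27 to 0.65), under 2-fold. Mmp9 had 10.2 reads per 1000 reads of S100a8 in PDR and 8.59 in SKYD. The neutrophil markers Retnlg (2394 and 3192 reads) and Elane (788 and 143) ran opposite ways, so this ratio depends on the marker chosen. Mmp8 exceeded Mmp9 by FPKM 17.5-fold in PDR and 39.6-fold in SKYD, although both are stored in neutrophil granules. Osteoclasts are another source of Mmp9, and all 5 osteoclast markers with reads had the higher FPKM in SKYD, 2 of them past 2-fold. The osteoclast list summed to 3818 reads in PDR and 7107 in SKYD, led by Acp5 with 3692 and 6707, a gene that macrophages also express. Next by mean FPKM came Ocstamp (117 and 140 reads) and Atp6v0d2. Calcr had 0 reads in both libraries, and Dcstamp and Atp6v0d2 had 0 in PDR but 89 and 156 in SKYD.

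Mmp2 (ENSMUSG00000031740, chr8:92827291-92853420, plus strand), gelatinase A of fibroblasts and smooth muscle, had 4 reads in PDR and 98 in SKYD. Its FPKM was 0.0505 and 1.16, 23-fold higher in SKYD (95% CI 8.71 to 86.2). Its activator Mmp14 (ENSMUSG00000000957, chr14:54431612-54445364, plus strand), the membrane protease MT1-MMP, had 249 reads and 1.78 FPKM in PDR and 234 reads and 1.57 FPKM in SKYD. The ratio of 1.13 in favour of PDR had an interval that spans 1 (95% CI 0.943 to 1.36), and the log2(FPKM + 1) difference was 0.11 (95% CI -0.05 to 0.28), so no difference was detectable at this depth. Of the trio that forms the proMMP2 activation complex on the cell surface, Mmp2 and Timp2 were therefore higher in SKYD while Mmp14 showed no detectable difference.

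The other membrane types had few reads. Mmp25, or leukolysin, which is anchored to the leukocyte surface, had 9 reads in PDR and 38 in SKYD and was 3.97-fold higher in SKYD (95% CI 1.89 to 9.33). Mmp15, Mmp17 and Mmp24 had 0 reads in PDR and 6, 5 and 1 in SKYD, and Mmp16 had 0 in both.

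Mmp19 had the largest difference of the 3 matrix protease genes with at least 1000 reads in both libraries together. Mmp19 (ENSMUSG00000025355, chr10:128790910-128800824, plus strand) encodes a protease of basement membranes made by macrophages and vessel wall cells. It had 290 reads and 3.49 FPKM in PDR and 1978 reads and 22.4 FPKM in SKYD, and was 6.41-fold higher in SKYD (95% CI 5.66 to 7.28). The log2(FPKM + 1) difference was -2.38 (95% CI -2.52 to -2.24). Of its exon bases, 22.3% overlap Tmem198b on the opposite strand, which had 35 reads in PDR and 159 in SKYD. Whether the counting used strand was not given in the sources used here, so reads in that overlap cannot be assigned.

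Mmp23, a membrane protein without the usual haemopexin domain, had 31 reads in PDR and 61 in SKYD, 1.85-fold higher in SKYD (95% CI 1.18 to 2.95). Mmp28, or epilysin, had 43 and 90 reads, 1.97-fold higher in SKYD (95% CI 1.35 to 2.90), and 12.0% of its exon bases overlap 1700020L24Rik on the opposite strand. Both lay just inside 2-fold. Mmp21, which is needed for left-right asymmetry, had 0 reads in both libraries.

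**Figure D3:**
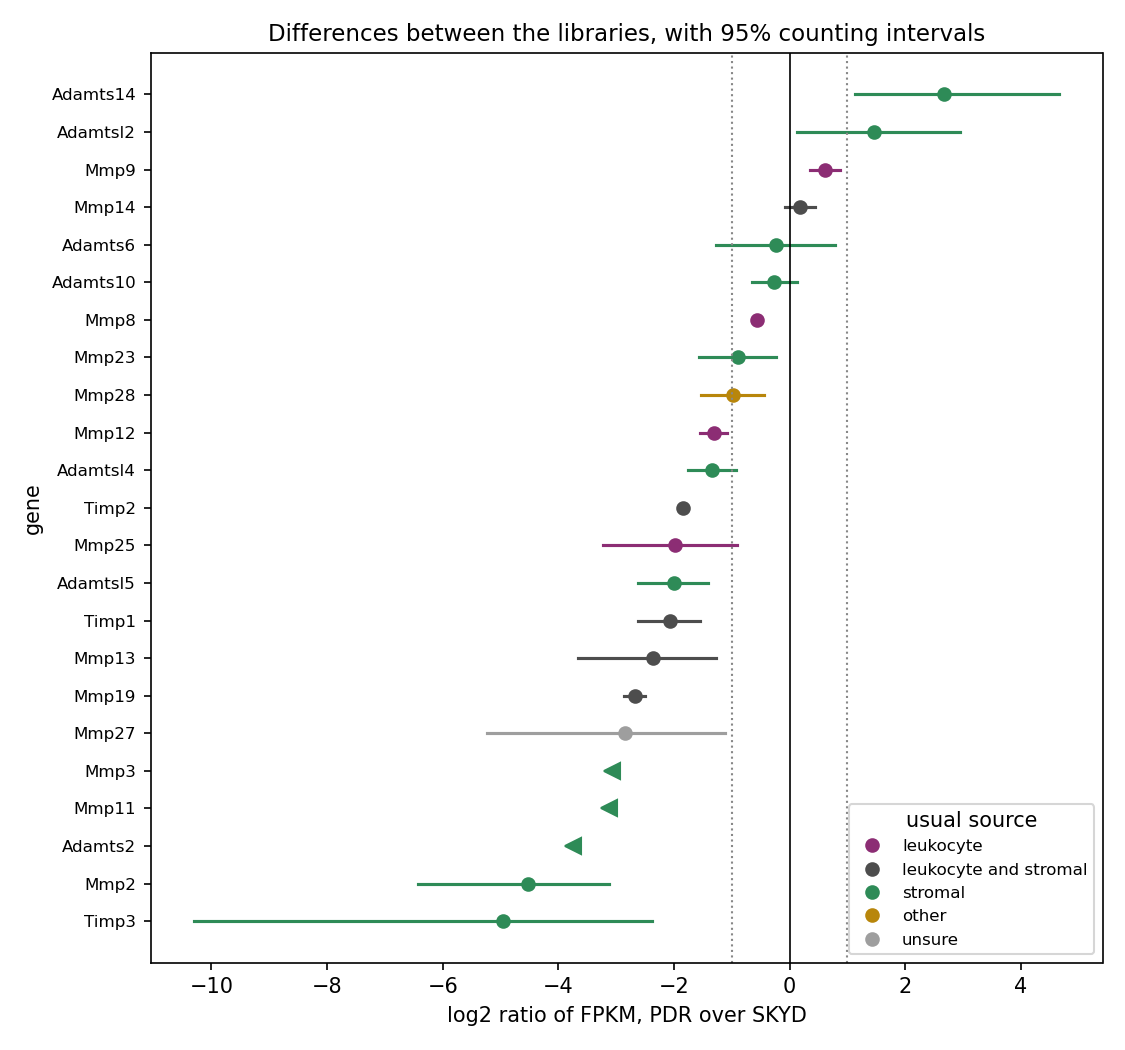
Log2 ratio of FPKM, PDR over SKYD, for the 23 genes with at least 20 reads in both libraries together, sorted, with bars for the 95% counting intervals and colours for the usual source. Triangles are genes with 0 reads in PDR, drawn at their bound, dotted lines mark 2-fold, and most genes lie on the SKYD side with intervals that widen for genes with few reads.

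The ADAMTS proteases were scarcely detected. The 19 Adamts genes held 155 reads in PDR and 232 in SKYD, 7 of them had none, and 4 reached 20 reads. Adamts10, which acts at fibrillin microfibrils, had the most, with 100 and 128 reads and a ratio of 1.20 toward SKYD (95% CI 0.919 to 1.58). Adamts6, also of microfibrils, had 16 and 20 reads (1.17-fold, 95% CI 0.578 to 2.42). For both, no difference was detectable at this depth. The procollagen N-proteinases, which trim new collagen so that fibrils can form, ran in opposite directions. Adamts2 had 0 reads in PDR and 43 in SKYD, at least 13.5-fold higher in SKYD (lower counting bound 10.5). Adamts14 had 24 and 4, and was 6.38-fold higher in PDR (95% CI 2.19 to 25.3).

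Proteoglycan-cleaving members were all under the minimum of 20 reads. Of the 7 such genes, Adamts1, Adamts5 and Adamts15 had 16, 8 and 5 reads in SKYD and 0 in PDR, and Adamts4, Adamts8, Adamts9 and Adamts20 had 0 in both. Adamts7, which cleaves cartilage oligomeric matrix protein, had 14 reads in PDR and 0 in SKYD, and Adamts12 of the same kind had 0 in both. Adamts17, Adamts3 and Adamts16 had 4, 2 and 1 reads in SKYD and 0 in PDR, and Adamts18 and Adamts19 had none. Adamts13, the protease of von Willebrand factor made by liver stellate cells, had 1 read in each library. Hepatocyte markers were abundant beside it, 7 of 8 of them being more than 2-fold higher in PDR, with 54250 reads (0.235%) in PDR and 18973 (0.0746%) in SKYD and the most reads on Alb, 14192 and 4261. Apoa2 (10000 and 3952 reads), Fabp1 (5320 and 2307) and Apoa1 (11678 and 3437) had the highest mean FPKM of that list. Liver stellate cell markers summed to only 263 and 127 reads, led by mean FPKM by Des (141 and 55), Hgf (53 and 46) and Reln (69 and 16), with Hand2 at 0 in both libraries and Lrat and Colec11 at 0 in PDR. The ADAMTS members were thus near or below the floor of detection apart from a few genes.

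The ADAMTS-like genes had 129 reads in PDR and 336 in SKYD, and all 5 had reads. Adamtsl4 (ENSMUSG00000015850, chr3:95676201-95687917, minus strand), which binds fibrillin, had 68 reads and 0.690 FPKM in PDR and 183 reads and 1.74 FPKM in SKYD. It was 2.53-fold higher in SKYD (95% CI 1.90 to 3.39), with a log2(FPKM + 1) difference of -0.70 (95% CI -0.89 to -0.50). Adamtsl5 had 30 and 128 reads, 4.01-fold higher in SKYD (95% CI 2.68 to 6.18). Adamtsl2, which binds fibrillin and a latent TGF-beta binding protein, went the other way with 18 and 7 reads, 2.74-fold higher in PDR (95% CI 1.09 to 7.75). Below the minimum, Adamtsl3 had 11 and 8 reads and Adamtsl1 had 2 and 10. The genes with reads thus lay on both sides, with the more abundant pair on the SKYD side.

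Low reads bear on these counts. Among protein-coding genes with 20 to 49 reads, 38.1% were past 2-fold toward SKYD, 28.0% toward PDR, and 20.2% had 0 reads in 1 library. Of the 9 matrix protease genes in that range, 6 were past 2-fold toward SKYD, 2 toward PDR, and 3 had 0 reads in 1 library. From 50 to fewer than 200 reads the shares of protein-coding genes were 26.7% for SKYD and 19.0% for PDR, beside 3 and 0 of 5 matrix protease genes. From 200 to fewer than 1000 reads they were 10.7% and 10.4%, beside 3 and 0 of 6, and from 1000 reads they were 5.20% and 6.54%, beside 2 and 0 of 3. A call on few reads was therefore common in these libraries, whereas the calls of Timp2 and Mmp19 came from a range in which such differences were rarer.

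**Figure D4:**
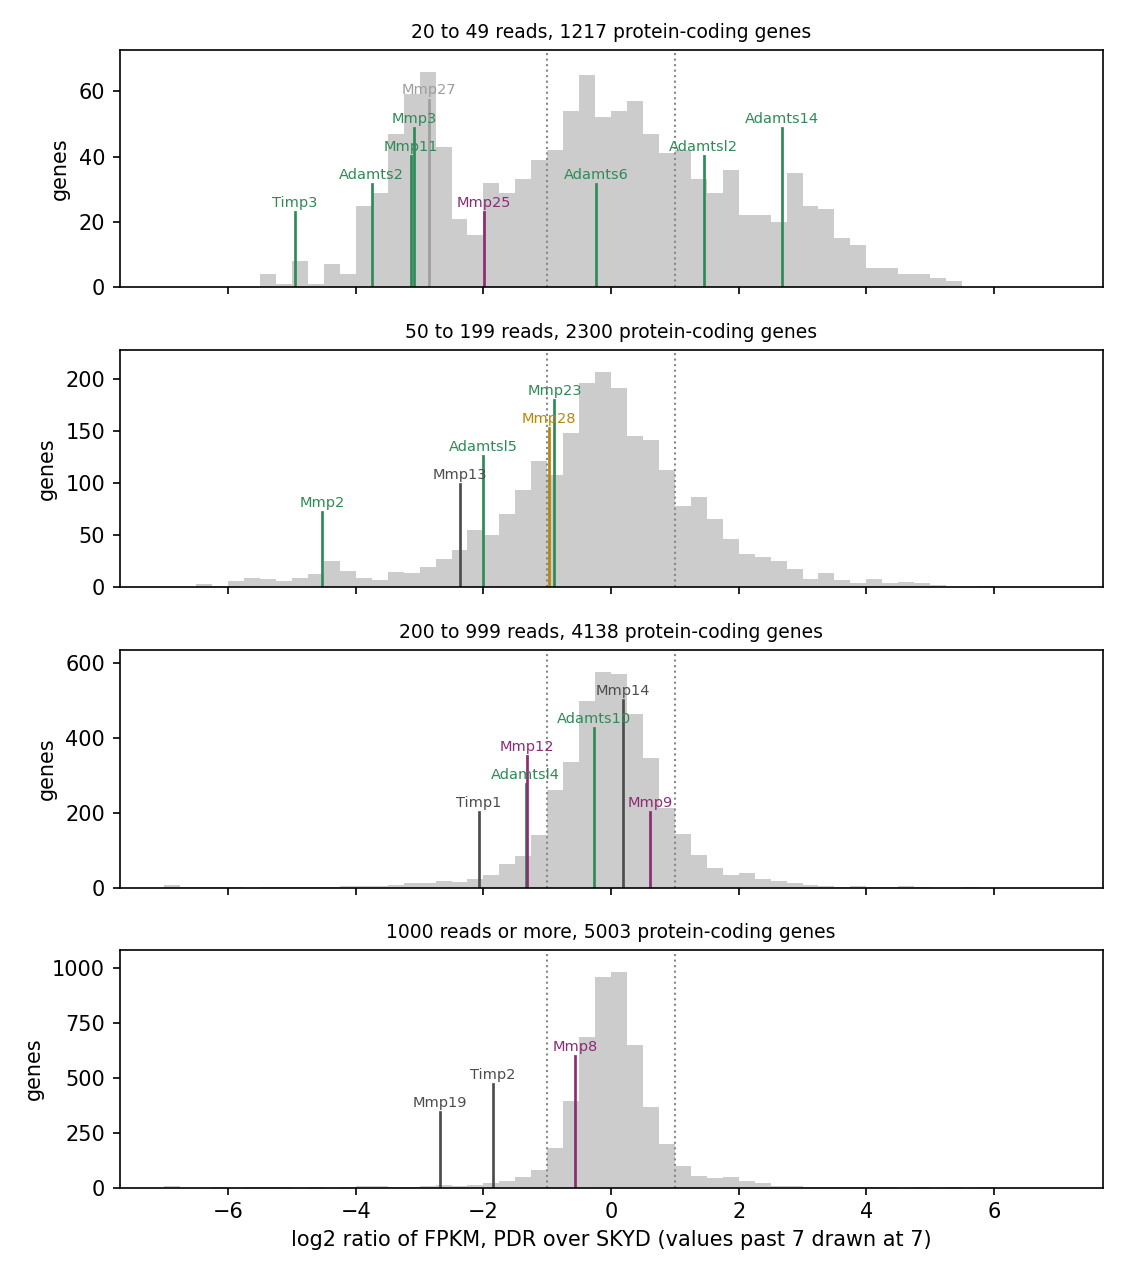
Number of protein-coding genes by log2 ratio of FPKM, PDR over SKYD, in 4 ranges of reads summed over both libraries (grey bars), with the matrix protease genes of each range as coloured lines; purple lines are leukocyte, dark grey both, green stromal, ochre other and light grey unsure in usual source. Dotted lines mark 2-fold, and the grey distribution narrows as reads increase, leaving Timp2 and Mmp19 on its SKYD flank.

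By usual source, the 4 leukocyte genes (Mmp8, Mmp9, Mmp12 and Mmp25) summed to 72.0 FPKM in PDR and 105 in SKYD, 1.45-fold higher in SKYD, and 2 of these 4 passed 2-fold toward SKYD. The 5 genes of both sources (Timp1, Timp2, Mmp13, Mmp14 and Mmp19) summed to 46.2 and 173 FPKM, 3.74-fold higher in SKYD, with 4 of 5 more than 2-fold higher there. The 27 stromal genes summed to 3.0 and 7.77 FPKM, 2.59-fold higher in SKYD. Of these 27, 21 had reads and 12 reached 20 reads, with 7 past 2-fold toward SKYD, 2 toward PDR and 3 neither, and 4 had 20 reads in each library, 2 of them past 2-fold toward SKYD. Genes of the stromal class were thus a minor part of the summed level in either library, unlike the class of both sources, which includes Timp2. The median log2 ratios over the genes with 20 reads were -0.94 for leukocyte genes, -2.07 for those of both sources and -1.67 for stromal genes. For the 4 stromal genes with at least 20 reads in each library, the median was -1.11. Among all genes tested by reads, 15.4% passed 2-fold toward SKYD and 13.3% toward PDR, and with 20 reads in each library 9.05% and 9.48% did. Among protein-coding genes with 20 to 49 reads, the shares were 38.1% and 28.0%. The stromal genes Adamts2, Adamts6, Timp3, Adamts14, Mmp11, Mmp3 and Adamtsl2 lay in that range. The difference between these classes was not tested.

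Fibroblast and mesothelial markers lay on the SKYD side, as did most of the stromal genes with 20 reads. Smooth muscle markers were split, and most endothelial and liver stellate cell markers with 20 reads had the higher FPKM in PDR. All 10 fibroblast markers had the higher FPKM in SKYD, 9 of them by more than 2-fold, and they summed to 1698 reads (0.00735%) in PDR and 7488 (0.0294%) in SKYD. Dcn, which encodes the collagen-binding proteoglycan decorin, was the most abundant with 1375 and 5747 reads, followed by mean FPKM by Mfap5 (73 and 721 reads) and Dpt (10 and 115 reads). Col1a1, the main fibrillar collagen gene, had 1 read in PDR and 55 in SKYD, and no fibroblast marker was at 0. Mesothelial markers were higher in SKYD in all 5 of the 6 genes that reached 20 reads, with 585 reads in PDR and 1801 in SKYD, the most of them on Krt19 (202 and 635), then Upk1b (143 and 334) and Msln (146 and 255) by mean FPKM, and Wt1 was at 0 in PDR. Their part in the results on stromal members was not tested.

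Smooth muscle is the main stromal cell of the aortic media, and of its 8 markers Myh11, Tagln, Cnn1, Lmod1 and Myocd were at 0 in both libraries. The remaining 3, Acta2, Des and Smtn, had 65, 141 and 18 reads in PDR and 104, 55 and 49 in SKYD, 224 and 208 reads in all. Of 8 endothelial markers, 6 reached 20 reads, of which 4 had the higher FPKM in PDR, and the list summed to 722 reads in PDR and 524 in SKYD, led by mean FPKM by Pecam1 (569 and 400), Cldn5 (22 and 12) and Egfl7 (41 and 35), with Emcn at 0 in PDR. The part of either cell type in the results was not tested.

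Other leukocytes differed as well. T cell markers had 16719 reads in PDR and 75809 in SKYD, with 7 of 8 more than 2-fold higher in SKYD and the most reads in both libraries together on Cd8b1 (1383 and 19828), followed by mean FPKM by Cd2 (6364 and 5483) and Cd3d (1803 and 10010). B cell markers had 83621 reads in PDR and 17217 in SKYD, with 6 of 7 more than 2-fold higher in PDR. Cd79b (26961 and 6012), Cd79a (19916 and 6493) and Ms4a1 (28542 and 3486) led that list by mean FPKM, and Cd79b also by reads in both libraries together. Of 6 dendritic cell markers 4 had the higher FPKM in SKYD, with 4845 and 8985 reads in all and Cd209a (1575 and 6596), Ccr7 (2632 and 1486) and Flt3 (435 and 570) leading by mean FPKM. Platelet markers had 4587 and 26804 reads, most of them on Pf4 (3690 and 26049), then by mean FPKM Ppbp (585 and 537) and Gp9 (103 and 82), and 3 of the 5 with reads had the higher FPKM in PDR, with Gp1bb at 0 in both. Mast cell markers had 335 and 594 reads, led by mean FPKM by Cpa3 (205 and 530), Cma1 (66 and 15) and Ms4a2 (41 and 18), and split evenly, with Mcpt4 and Tpsb2 at 0 in both. Thymic epithelium markers had 384 and 441 reads, led by mean FPKM by Epcam (279 and 346), Prss16 (40 and 47) and Ly75 (65 and 41), with Foxn1 and Psmb11 at 0 in both and Aire at 0 in PDR. The libraries therefore held RNA of several leukocyte types in different shares, whose part in the matrix protease results was not tested.

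**Figure D5:**
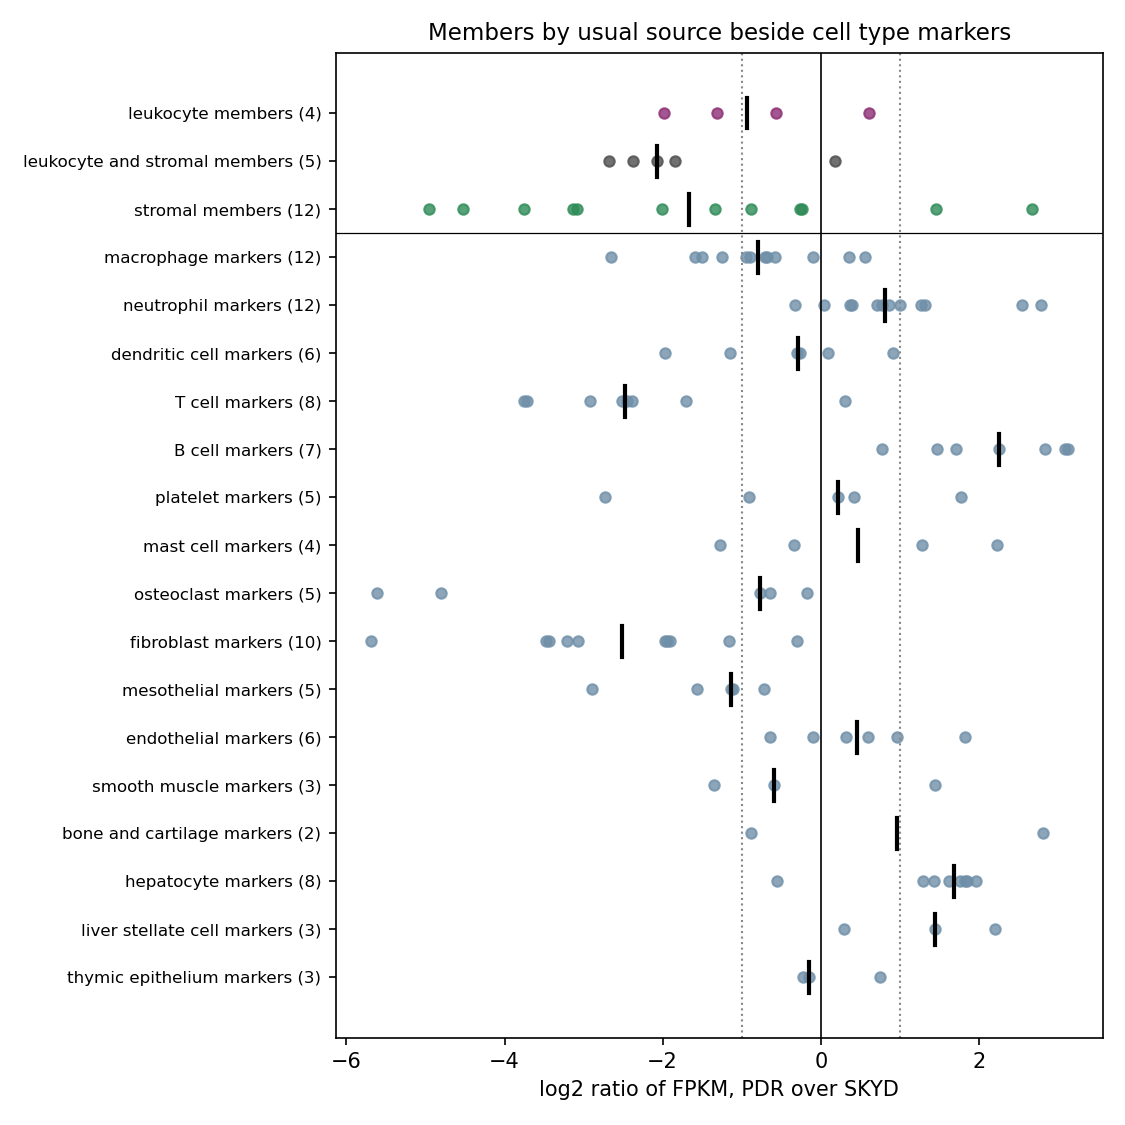
Log2 ratio of FPKM, PDR over SKYD, of matrix protease genes by usual source (upper rows) and of cell type markers (lower rows), for genes with at least 20 reads in both libraries together, the number of genes being given in brackets. Each point is a gene, black bars are medians and dotted lines mark 2-fold. The medians of macrophage, dendritic cell, T cell, osteoclast, fibroblast, mesothelial, smooth muscle and thymic epithelium markers lie on the SKYD side, as do those of the matrix protease genes. The medians of the other marker lists, among them neutrophil, B cell and hepatocyte markers, lie on the PDR side.

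Proenzymes need activators and receptors, and a list of 34 genes for activation and control covered these. By reads, 27 were tested, 5 being past 2-fold toward SKYD, 9 toward PDR and 13 neither, and the median log2 ratio was -0.39. Among all genes tested by this rule, 15.4% passed 2-fold toward SKYD and 13.3% toward PDR. The list summed to 36751 reads in PDR and 55861 in SKYD. Bsg, which encodes the Mmp inducer basigin, was the most abundant with 10510 and 16601 reads, 1.48-fold higher in SKYD (95% CI 1.45 to 1.52). Serpinb2, an inhibitor of urokinase, had 8386 and 14095 reads, and Plaur, the urokinase receptor, had 3355 and 5642, each 1.58-fold higher in SKYD. Further genes of any list, beyond the leading 3 and those at 0, were named after their values were seen. Plg, the liver gene of plasminogen, had 470 and 71 reads, 7.04-fold higher in PDR (95% CI 5.48 to 9.17), in the direction of most hepatocyte markers. Ctsg (399 and 67 reads) and Cma1, proteases of neutrophil and mast cell granules, were 6.34-fold (95% CI 4.88 to 8.34) and 4.68-fold (95% CI 2.64 to 8.83) higher in PDR. Elane, a neutrophil elastase that also serves as a neutrophil marker, had 788 and 143 reads, 5.86-fold higher in PDR (95% CI 4.90 to 7.06). Prtn3, a related granule protease of neutrophils with more reads, went the other way with 2002 and 3609, 1.69-fold higher in SKYD (95% CI 1.60 to 1.79). Cd63, the tetraspanin that binds TIMP1, was 2.92-fold higher in SKYD (1157 and 3589 reads, 95% CI 2.73 to 3.12). The list as a whole thus split between the libraries, while its 3 genes with the highest mean FPKM were higher in SKYD by less than 2-fold.

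Genes for the substrates of these proteases were mostly higher in SKYD. Of 25 matrix substrate genes, 21 reached 20 reads, with 16 past 2-fold toward SKYD, 1 (Lama4) toward PDR and 4 neither. Among all genes tested, 15.4% passed it toward SKYD and 13.3% toward PDR. The median log2 ratio of the list was -1.67. Several calls toward SKYD had fewer than 20 reads in PDR, such as Lum (11 and 130), Col1a1 (1 and 55) and Fbn2 (0 and 24). Others, such as Thbs1 (392 and 5031) and Sparc (187 and 1817), had at least 20 in each library. Lama4 had 38 reads in PDR and 11 in SKYD. The list summed to 7826 reads in PDR and 28228 in SKYD, and 5 of its genes are also fibroblast markers. Spp1, or osteopontin, which macrophages also make, had the highest mean FPKM with 2808 and 4204 reads, 1.41-fold higher in SKYD (95% CI 1.34 to 1.48). Dcn came next, 3.93-fold higher in SKYD (95% CI 3.70 to 4.17). Fn1, or fibronectin, had the most reads, 2529 and 9983, and was 3.71-fold higher in SKYD (95% CI 3.55 to 3.88). Acan, the substrate of the aggrecanases, was at 0 in both libraries along with Bcan and Ncan, and Adamts4, aggrecanase 1, was at 0 too. Comp, the substrate of Adamts7, had 0 reads in PDR and 38 in SKYD, the reverse of Adamts7. Most substrate genes tested thus passed 2-fold toward SKYD, in part through genes with fewer than 20 reads in PDR. Lama4, with 11 reads in SKYD, was the exception past 2-fold.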

How the data were processed

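Each syndrome had 1 library from pooled sorted cells of the aorta. The authors filtered reads, aligned them with TopHat 2.0.9 and Bowtie 2.0.6, counted them per gene with HTSeq 0.6.1 and deposited FPKM. Labels name mm9, but 98.3% of shared genes have the start and end of GENCODE M21 on GRCm38, as do 49 of the 50 members. FPKM times gene length is a whole multiple (within 0.05) of the value of 1 read for 100% of genes above 0, which gave reads and the library sizes behind FPKM, 23487992 (PDR) and 24993633 (SKYD). The limit for 0 reads is 3 reads, or 1.3e-05% and 1.18e-05% of reads on genes.

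Genes were compared by log2(FPKM + 1) at a mean FPKM of at least 1 and by FPKM ratio at 20 reads or more, both at 2-fold. Members with at least 20 reads were named, and of each of the 16 cell type lists and 2 matrix lists the leading genes and those at 0. Members and lists were chosen with earlier results of these data known. No test was possible with 1 library per group. Alternatives were pseudocounts of 0.1 and 0.01, other minimums, TPM, centring, sums of reads as library sizes, strict intervals and 4-fold. Added after the data were seen were protein-coding genes, ranges of reads, 20 reads in each library and both Timp to Mmp ratios. Promoters are RefSeq entries of GRCm38.p6. Steps were tested on simulated data with matplotlib 3.10.9, scipy 1.17.1, pandas 2.3.3, numpy 2.4.6 and Python 3.11.15. The authors' own differential expression was not used here.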

Additional observations from a re-analysis of the deposited data

How the results depend on the processing

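By FPKM, 3 genes were more than 2-fold higher in SKYD. The number was 5 with a pseudocount of 0.1 and 5 with 0.01, and 1 (Mmp19) at 4-fold. It stayed within 1.5 times under the other settings, and 0 were higher in PDR under any of them. The median difference of -0.78 was -1.24 with a pseudocount of 0.1, -1.32 with 0.01, -0.0929 with no filter and -1.82 at a mean FPKM of at least 5, and each was negative. By reads, 14 genes were higher in SKYD and 2 in PDR. The number for SKYD was 8 at 50 reads or more and 6 with 20 reads in each library, with fewer genes tested. The number for PDR was 0 at 50 reads or more, 0 with 20 reads in each library, 5 at 10 or more, 1 with the interval wholly past 2-fold and 1 at 4-fold. Calls toward PDR therefore rested on genes with few reads. The Timp to Mmp ratio without Mmp8 was 3.38 in PDR and 4.23 in SKYD, against 0.518 and 1.11 with it.

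For the 23 named genes, 46 of 92 differences under other pseudocounts, TPM or centring left their counting interval, and 0 changed sign. No paired analysis was possible because each syndrome had 1 library. Pools of 5 mice hide the spread between mice, intervals cover counting error only, and 15 of 38 detected genes had under 20 reads.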

Other observations

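The ADAM proteases, membrane relatives that shed cell surface proteins, were not chosen by the rule. Of 33 protein-coding Adam genes, 16 had reads and 10 reached 20 reads. Of these 10, 2 passed 2-fold toward SKYD, 3 toward PDR and 5 neither way. Among all genes tested by the same rule, 15.4% passed it toward SKYD and 13.3% toward PDR. Adam15 had the most reads, 1099 in PDR and 1786 in SKYD. Adam8, a sheddase of myeloid cells, had 497 and 1724 reads and was 3.26-fold higher in SKYD (95% CI 2.95 to 3.61). Adam17, which releases TNF, went the other way with 1207 and 558 reads, 2.30-fold higher in PDR (95% CI 2.08 to 2.55), while its matrix-bound inhibitor Timp3 had reads almost only in SKYD. Adam10, the closest relative of Adam17, had 1018 and 1111 reads, a ratio of 1.03 toward SKYD (95% CI 0.941 to 1.12). Adam12 had 0 reads in PDR and 71 in SKYD, at least 22.2-fold higher in SKYD (lower counting bound 17.6).

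Genes with at least 20 reads in 1 library and 0 in the other were found mainly among genes with few reads. Among protein-coding genes with 20 to 49 reads in both libraries together, 246 of 1217 had 0 in 1 library, and among those with 50 to fewer than 200 reads 73 of 2300 did, against 9 of 4138 from 200 to fewer than 1000 reads. Of the matrix protease genes, Adamts2 (0 and 43 reads), Mmp11 (0 and 28) and Mmp3 (0 and 27) were of this kind, each at 0 in PDR. A value of 0 was also more common in PDR over all protein-coding genes, with 8735 at 0 in PDR and 7199 in SKYD.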
